A study of Mus musculus with 10 samples.

Results

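Il2, Csf2, Lta, Ltb, Tnf, Cd40lg, Tnfsf8 and Tnfsf11 encode cytokines that T cells make: interleukin-2, GM-CSF and 6 ligands of the TNF family. These 8 genes were chosen by name among the 18193 mouse genes that had at least 1 probe set annotated to that gene alone, and each was read by the probe set that was brightest on average on the 10 arrays. Of the 8, 7 passed the filter on dim genes, which left 11938 genes for the tests. Cd40lg did not pass, because its level lay below the median over all probe sets on each of the 10 arrays.

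RNA of CD4 T cells sorted from pooled lymph node and spleen of female mice aged 6 to 8 weeks was measured on Affymetrix mouse 430 2.0 arrays, with 1 array for each of 10 groups. GFPfoxp3 cells were GFP+ CD4+ cells of Foxp3(gfp/gfp) mice, which carry a knock-in allele coding for a fusion of GFP with Foxp3, the transcription factor that defines regulatory T cells. GFPko cells were GFP+ CD4+ cells of Foxp3(gfpko/wt) mice, whose gfpko allele yields GFP and no Foxp3. Since Foxp3 is X-linked and these females also carry a wild-type allele, their GFP marked cells that used the mutant locus, in animals that kept normal regulatory T cells. CD25pos cells were GFP- CD25+ CD4+ cells and CD25neg cells GFP- CD25- CD4+ cells, both of Foxp3(gfp/gfp) mice. The Foxp3(gfp/gfp) mice had been backcrossed to C57BL/6 from 129/Sv for 8 to 10 generations and the Foxp3(gfpko/wt) mice for 5, so genotype and backcross cannot be told apart. GFPfoxp3, GFPko and CD25pos cells were each also taken from mice given 50 ng of IL-2 per g of body weight in 4 injections within 24 h, and cells were taken 30 min after the final injection. The labels of the untreated arrays do not state whether those mice received the PBS vehicle.

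The 3 other groups came from a separate experiment with retroviral vectors. CD25+ CD4+ cells of C57BL/6 mice were activated in culture with anti-CD3, anti-CD28 and IL-2 and transduced with MigR1-PDE3B, which codes for the cAMP-degrading enzyme phosphodiesterase 3B, with MigR1-PDE3B(H801A), which carries an amino acid substitution in that enzyme, or with the empty MigR1 vector. On culture day 5 over 70% of the cells were Foxp3+, and over 55% of these were transduced. They were transferred with Ly5.1+ cells of B6.SJL mice, CD25- CD4+ when isolated and carrying the same vector, into recipients that lack TCRalpha and so have no alpha beta T cells of their own. After 3 weeks CD4+ cells with GFP and GITR (a surface marker of regulatory T cells) but not Ly5.1 were sorted. Here GFP marked the vector and not the Foxp3 locus. These cells are called PDE3B, PDE3B(H801A) and empty vector cells after their labels. The level of Pde3b did not follow the labels: it was 6.91 on the array labelled PDE3B, 7.54 on the array labelled PDE3B(H801A) and 7.43 on the empty vector array. Whether the Pde3b probe set reads the sequence in the vector was not known here, so this level neither bears out nor contradicts a label.

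In conventional CD4 T cells the calcium-activated factor NFAT, with AP-1 and NF-kappaB, switches on Il2 within hours of stimulation. Regulatory T cells make almost no IL-2 and consume it through the high-affinity receptor, whose alpha chain is CD25. IL-2 acts on its target genes mainly through STAT5. The TNF family ligands act as trimers at the cell surface or after release: lymphotoxin alpha (Lta) is secreted alone or anchored by lymphotoxin beta (Ltb), Tnf drives inflammation, Cd40lg licenses B cells and dendritic cells, Tnfsf8 is the ligand of CD30, and Tnfsf11 (RANKL) drives osteoclast formation and lymph node development. Ltb, Tnf and Lta are neighbours, in that order, on chromosome 17.

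The start-site regions of the genes whose levels differed most, and of the neighbours of Lta, are printed because they hold the letters that such factors read. They are the 250 bases before the RefSeq start, in the assembly GRCm38.p6: Il2 at chr3:37125955-37126204 on the minus strand, Tnf at chr17:35202008-35202257 on the minus strand and Ltb at chr17:35194257-35194506 on the plus strand. For Lta, whose annotated start in that table is not the gene's outermost one, 2 short sites are shown, at chr17:35205487-35205511 and chr17:35205352-35205375 on the minus strand. Both lie downstream of the outermost start, inside the annotated gene. Sequences run 5′ to 3′, and capitals mark matches to the motifs described after them. TTTCC on the printed strand is GGAAA on the other.
Il2: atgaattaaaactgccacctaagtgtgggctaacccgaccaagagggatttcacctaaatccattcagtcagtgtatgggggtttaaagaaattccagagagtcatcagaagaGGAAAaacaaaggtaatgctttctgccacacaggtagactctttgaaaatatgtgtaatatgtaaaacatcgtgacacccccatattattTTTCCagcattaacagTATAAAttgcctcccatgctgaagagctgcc
Tnf: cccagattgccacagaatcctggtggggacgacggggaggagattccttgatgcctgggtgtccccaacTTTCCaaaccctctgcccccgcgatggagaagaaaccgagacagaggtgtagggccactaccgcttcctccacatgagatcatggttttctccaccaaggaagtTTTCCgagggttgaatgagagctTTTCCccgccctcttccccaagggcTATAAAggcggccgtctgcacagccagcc
Ltb: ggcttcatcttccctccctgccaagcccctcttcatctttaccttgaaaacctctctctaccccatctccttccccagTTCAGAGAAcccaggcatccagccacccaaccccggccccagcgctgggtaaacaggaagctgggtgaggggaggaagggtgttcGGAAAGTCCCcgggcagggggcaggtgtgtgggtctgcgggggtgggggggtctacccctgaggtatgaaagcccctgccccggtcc
Lta first site: catcactcTTCAGGGAAccaggctt
Lta second site: gactcccTTTCCCAGAAcgcagta

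Motifs were searched as letters in the windows of 7 of the 8 genes. Cd40lg had no entry. The NFAT core GGAAA, on either strand, was found in all 7 windows, and in 55.6% of the 32851 windows of all annotated starts. Tnf held 3 such cores, at 181, 77 and 54 bases before the start, counted to the far end of each. Il2 held 2, at 137 and 47 bases before the start, and Csf2 and Lta also held 2. At least 2 cores occurred in 21.4% of all windows. The STAT letters TTCNNNGAA occurred in 7.02% of all windows, once in Ltb and at 2 places in Lta, 152 to 144 and 16 to 8 bases before its start. Only 104 windows, 0.317% of all, held 2 or more STAT matches. Tnf held none, and neither did the window of Lif, a cytokine gene set beside Lta further on. The Lta site nearest the start overlaps an NFAT core. Both Lta sites lie inside the gene, downstream of its outermost start, and not upstream of the whole gene. The Tnfsf8 window was also taken from a start that is not the gene's outermost one. Ltb held a kappaB match, which overlaps its NFAT core and which 3.9% of windows had, and Il2, Tnf and Lta held TATAAA on the printed strand, found in 7.59% of windows. The AP-1 letters TGANTCA, found in 6.75% of windows, were in none of the 7. A match is a string of letters and was not measured as bound.

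Values are log2 expression levels. Since a probe set's brightness depends on its own sequence, levels are compared between arrays for 1 gene and never between genes. With 1 array a group there is no replicate of any group. Population and IL-2 were therefore tested with limma on the 6 arrays of the 3 populations that had an IL-2 array, as main effects whose error is the disagreement between populations or IL-2 states. An adjusted p under 0.05 was a call. These p-values measure how alike differences were in both IL-2 states (or, for IL-2, in the 3 populations), not how they would repeat between animals. The error is shared by the 3 populations, so the p of a contrast between 2 of them also depends on the remaining one. Pairs with 1 array on each side have no test, and are counted where they differed at least 2-fold. Where every array of the lower side was under its own median of all probe sets, which was 3.04 to 3.22, the gene counted as not above background, and a fold is given as "at least", computed against that median.

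The 6 CD4 T cell markers measured, of 7 listed, were above the array median on all 10 arrays, with a summed log2 level of 67.04 to 71.13. Foxp3 was at 10.86 in GFPfoxp3 cells with and without IL-2, at 9.39 and 8.33 in GFPko cells with and without IL-2, at 2.85 and 3.90 in CD25pos cells with and without IL-2, and at 2.45 in CD25neg cells. The vector arrays had 11.26 to 11.52. Where the Foxp3 probe set lies relative to the change in the gfpko allele was not known here. The 7 CD8 and NK markers measured, of 8 listed, summed to 25.83 to 28.66 in GFPfoxp3 and GFPko cells, 42.91 and 43.32 in CD25pos cells with and without IL-2, 35.76 in CD25neg cells and 28.30 to 29.27 in the vector arrays. Summed B cell markers, 7 of 8 measured, ranged over 29.47 to 38.09, and summed myeloid markers, 8 of 8 measured, over 22.29 to 26.37. Of the gamma delta and innate lymphoid markers 3 of 8 were measured, with sums of 13.88 to 18.93. The control probe set at the 3′ end of Actb exceeded the 5′ one by 2.70 to 3.80 in the freshly sorted cells and by 5.87 to 6.38 in the vector arrays, a measure of how short the cRNA was. In sorted bulk RNA a lower level from fewer cells that use a gene and one from less RNA per cell cannot be told apart.

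**Figure D1:**
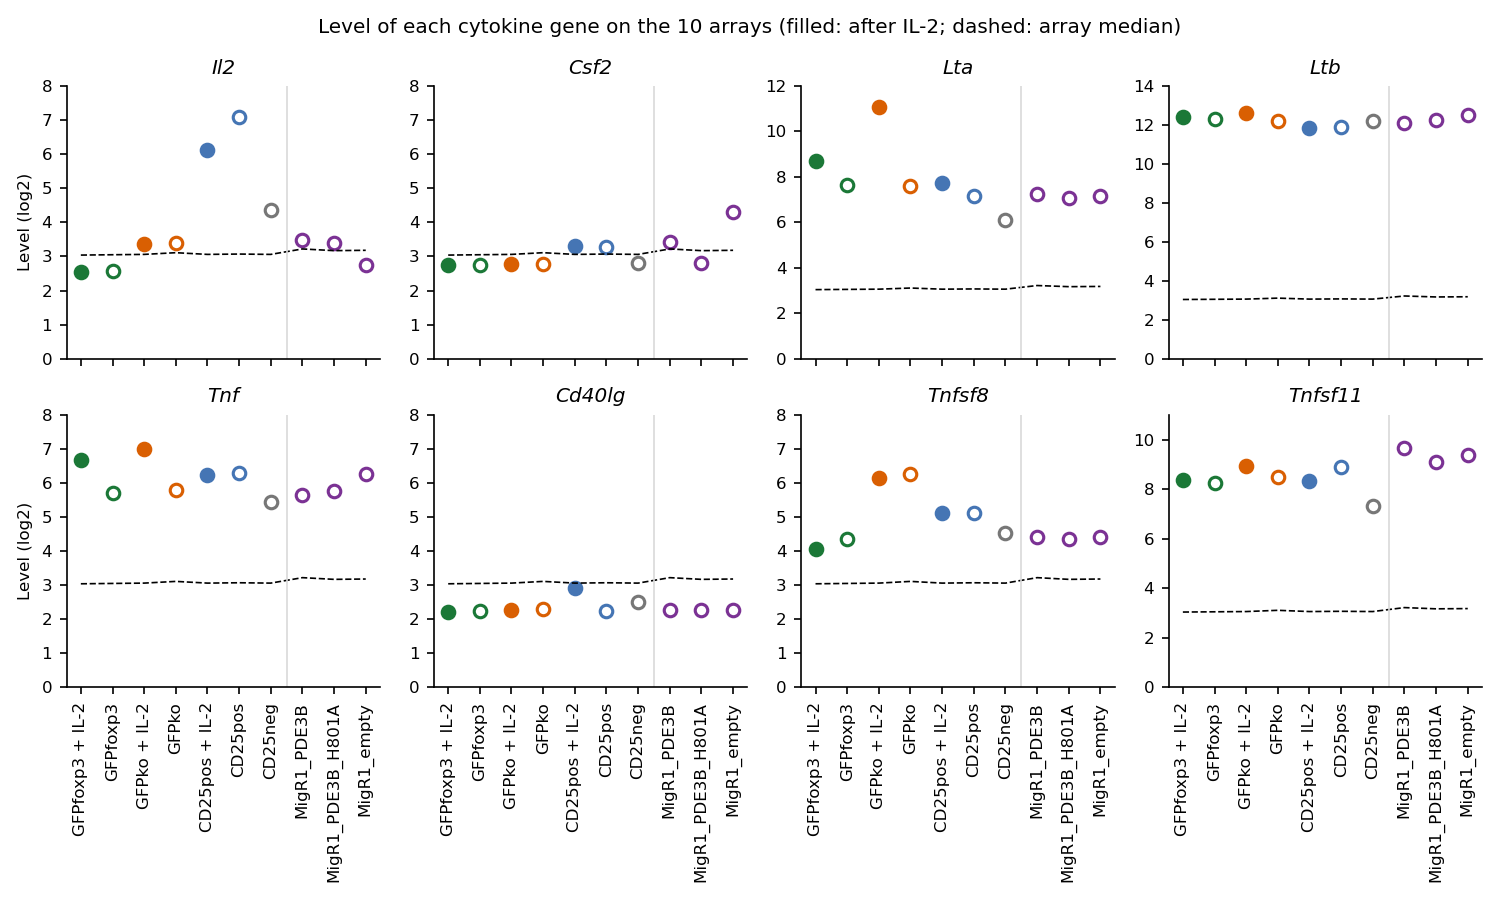
Log2 expression level of each of the 8 genes (1 panel a gene) on the 10 arrays, 1 point an array, with the median over all probe sets of each array as background. Il2 stands out in CD25pos cells (7.08 untreated), Lta in GFPko cells after IL-2 (11.06), Tnfsf8 in GFPko cells (6.15 and 6.27), and Cd40lg stays below the median on every array.

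Il2, the growth factor gene of activated T cells, was highest in CD25pos cells, intermediate in CD25neg cells and lowest in GFPfoxp3 cells. Its level was 2.54 and 2.56 in GFPfoxp3 cells with and without IL-2, 3.37 and 3.40 in GFPko cells with and without IL-2, and 6.12 and 7.08 in CD25pos cells with and without IL-2. It was 4.36 in CD25neg cells, 3.49 in PDE3B cells, 3.40 in PDE3B(H801A) cells and 2.76 in cells with the empty vector. Both GFPfoxp3 arrays and the empty vector array lay below the array median, GFPko cells lay just above it, and both CD25pos arrays stood above every other array.

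In the 6-array fit Il2 fell by 4.05 on the log2 scale in GFPfoxp3 cells against CD25pos cells, at least 11.8-fold lower (SE 0.278, limma adjusted p = 0.0081). It fell by 3.21 in GFPko cells against CD25pos cells, which was 9.28-fold lower (SE 0.278, limma adjusted p = 0.0224). The call against CD25pos cells held for GFPfoxp3 cells in all 10 alternatives, but for GFPko cells it was lost without the filter on dim genes (adjusted p = 0.0855) and without GFPfoxp3 cells in the fit (adjusted p = 0.0723). GFPfoxp3 cells differed from GFPko cells by -0.84 on the log2 scale, much alike with and without IL-2 (-0.83 and -0.84), but it did not pass (limma adjusted p = 0.161) unless arrays were centred (-0.99, adjusted p = 0.0421), and the GFPfoxp3 side was not above background. CD8 and NK markers moved with the CD25pos contrasts. Klrd1, an NK receptor subunit, differed by -6.05 in GFPfoxp3 cells and by -5.38 in GFPko cells. It was above background on 1 of the 2 arrays of each of these populations. Eomes, a cytotoxic lineage factor, differed by -4.70 and -5.17. Of the 6 markers of that list that passed the filter, 4 were called lower in each contrast, beside 3.45% and 2.24% of all genes. Klrk1, 1 of these 4, passed the filter through the CD25pos arrays alone, so its lower level elsewhere is partly built into that choice. Ncr1, a further member of that list, did not pass the filter. It was below the median on every array, at 2.29 and 2.53 in CD25pos cells with and without IL-2. Cd8a itself was at 3.13 to 3.30 on every array, near the array median. Cd8b1 was above the median on all 10 arrays. It was at 4.48 and 4.47 in CD25pos cells with and without IL-2, 5.05 in CD25neg cells and highest, 5.53, in GFPko cells with IL-2. The part of these markers in the Il2 difference was not tested.

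Among untreated cells CD25pos cells had 6.60-fold more Il2 than CD25neg cells (2.72 on the log2 scale), and GFPfoxp3 cells at least 2.47-fold less than CD25neg cells. GFPko cells differed from CD25neg cells by -0.96, just inside 2-fold (-1.02 after quantile normalization). After IL-2 the Il2 level of CD25pos cells differed by -0.96 from untreated CD25pos cells, that of GFPfoxp3 cells by -0.02 and that of GFPko cells by -0.03. These are differences between single arrays with no test.

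Csf2 encodes GM-CSF, which acts on myeloid cells. It was above the array median on 4 of the 10 arrays, at 3.32 and 3.28 in CD25pos cells with and without IL-2, 3.41 in PDE3B cells and 4.30 in cells with the empty vector. On the other arrays it lay between 2.74 and 2.81. Csf2 was called lower in GFPfoxp3 cells than in CD25pos cells (log2 difference -0.55, SE 0.0947, at least 1.19-fold, limma adjusted p = 0.0452). The same comparison for GFPko cells gave -0.53 and did not pass (limma adjusted p = 0.073). The GFPfoxp3 call was lost with all 10 arrays in the fit (adjusted p = 0.574) and without GFPko cells (adjusted p = 0.0604). The gene passed the filter through the CD25pos and vector arrays alone, so a lower level in the other cells is partly built into that choice.

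Tnfsf8, the ligand of the receptor CD30, separated GFPko cells from the rest. Its level was 4.05 and 4.36 in GFPfoxp3 cells with and without IL-2, 6.15 and 6.27 in GFPko cells with and without IL-2, 5.13 in CD25pos cells in both states and 4.54 in CD25neg cells. The vector arrays lay at 4.35 to 4.42, inside the span of 4.05 to 4.54 that GFPfoxp3 and CD25neg cells covered. Both GFPko arrays stood above both CD25pos arrays, and these above all the others.

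Tnfsf8 fell by 2.01 on the log2 scale in GFPfoxp3 cells against GFPko cells, 4.01-fold lower (SE 0.120, limma adjusted p = 0.00826), and it was the sole call among the 7 genes there. Over all genes 2.03% were called lower and 7.47% in either direction in that comparison, with 72.9% of the calls higher (51.3% when arrays were centred on their median, which put the median difference of all genes at -0.14, beside 0.01 without centring). Against CD25pos cells Tnfsf8 was lower in GFPfoxp3 cells (-0.93, SE 0.120, limma adjusted p = 0.026) and higher in GFPko cells (1.08, 2.11-fold, SE 0.120, limma adjusted p = 0.0332). The lower level against GFPko cells was called in all 10 alternatives. The calls against CD25pos cells were lost without the filter on dim genes (adjusted p = 0.053 for GFPfoxp3 and 0.0771 for GFPko cells) and without the other GFP+ population in the fit (0.057 and 0.1). Untreated GFPko cells had 3.31-fold more than CD25neg cells. After IL-2 it differed by -0.31, -0.12 and 0.00 in GFPfoxp3, GFPko and CD25pos cells. Fcgr3, an Fc receptor gene of myeloid and some lymphoid cells, had no level above background in GFPfoxp3 cells, where it was at least 3.88-fold lower than in GFPko cells (limma adjusted p = 0.0306). It was the sole one called of the 6 myeloid markers that passed the filter, whose median difference was -0.07. Also lower in GFPfoxp3 cells were Id2, an inhibitor of E proteins (-2.23, limma adjusted p = 0.0244), and Kit, a stem cell factor receptor (-1.01, limma adjusted p = 0.0479). These were the 2 gamma delta and innate lymphoid markers that passed the filter. Of the 4 B cell markers that passed, Ighm and Cd79b ran the other way (2.03 and 1.65, limma adjusted p = 0.0116 and 0.0121), beside 5.44% of all genes called higher. Cd79a, Pax5 and Blk were below the median on every array. The part of the called markers in the Tnfsf8 difference was not tested.

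Read over the 7 genes, 3 were called lower in GFPfoxp3 cells than in CD25pos cells (Il2, Tnfsf8 and Csf2) and none higher, where 3.45% of all genes were called lower and 8.73% in either direction. Csf2 gives this count no support, since it passed the filter through the CD25pos and vector arrays and not through GFPfoxp3 cells. In GFPko cells against CD25pos cells Tnfsf8 was called higher and Il2 lower, where 1.25% of all genes were called higher, 2.24% lower and 3.48% in either direction (35.8% of the calls were higher, and 51.6% when arrays were centred). The median log2 difference of the 7 genes was -0.39 for GFPfoxp3 against GFPko cells, beside 0.01 over all genes, -0.29 for GFPfoxp3 against CD25pos cells, beside -0.03, and 0.13 for GFPko against CD25pos cells, beside -0.01. With genes not above background at their bound these medians were -0.34, -0.25 and 0.13. These comparisons share arrays pairwise and are not separate evidence.

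**Figure D2:**
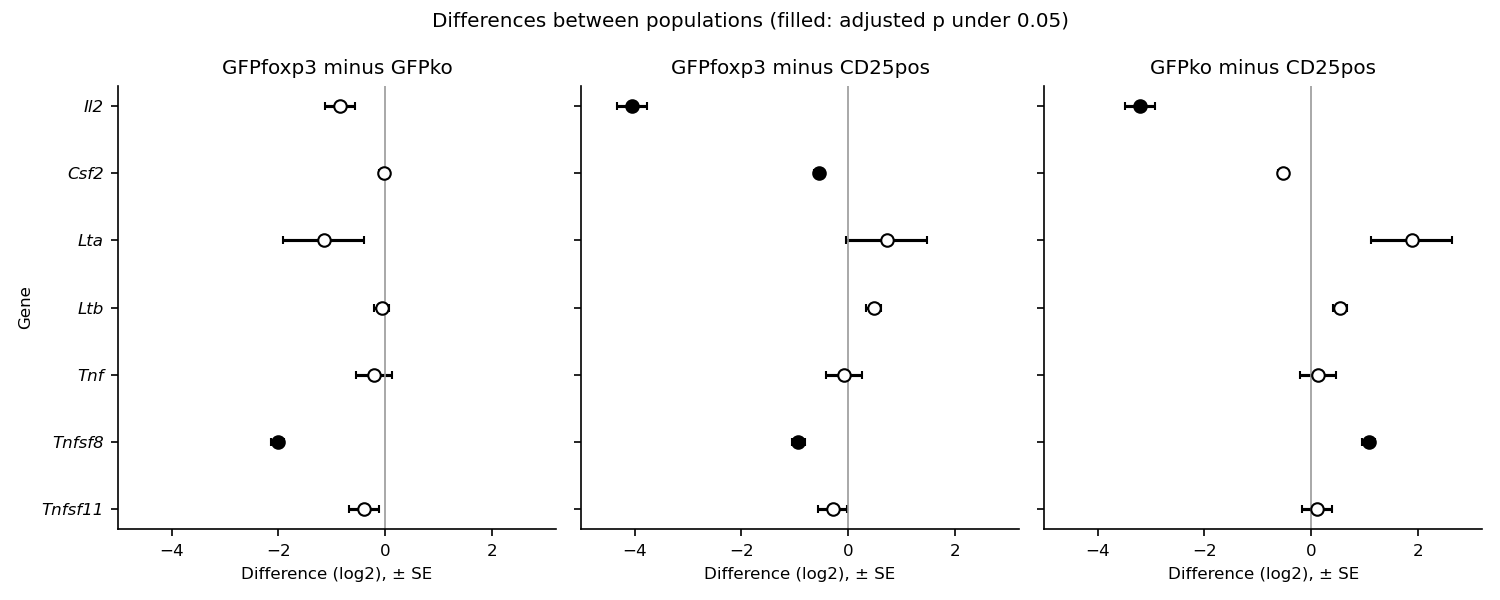
Log2 difference between populations for the 7 genes that passed the filter, as fitted by limma over 6 arrays, with bars of 1 standard error. Il2 lies at -4.05 and -3.21 in GFPfoxp3 and GFPko cells against CD25pos cells, and Tnfsf8 at -2.01 in GFPfoxp3 against GFPko cells.

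Lta, the secreted lymphotoxin chain, varied most of the 8 genes. Its range of 4.97 log2 units ran from untreated CD25neg cells to GFPko cells after IL-2, so it spans both population and IL-2. Its level was 8.70 and 7.64 in GFPfoxp3 cells with and without IL-2, 11.06 and 7.59 in GFPko cells with and without IL-2, and 7.75 and 7.14 in CD25pos cells with and without IL-2. CD25neg cells had 6.09, and the vector arrays lay between 7.07 and 7.25. Each population had more Lta with IL-2 than without, and GFPko cells after IL-2 stood above every other array.

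The IL-2 difference in Lta was 1.07 on the log2 scale in GFPfoxp3 cells (2.09-fold), 3.47 in GFPko cells (11.1-fold) and 0.60 in CD25pos cells (1.52-fold). Averaged over the populations it was 1.71 (SE 0.615) and did not pass (limma unadjusted p = 0.0467, adjusted p = 0.47). It was 0.83 without GFPko cells in the fit. Without IL-2, GFPfoxp3 and GFPko cells differed by 0.05 in Lta, and after IL-2 by -2.35. The averaged difference between these populations was -1.15 (SE 0.754, limma adjusted p = 0.421).

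Tnf, the inflammatory cytokine coded next to Lta, was higher with IL-2 in the GFP+ populations. Its level was 6.67 and 5.71 in GFPfoxp3 cells with and without IL-2, 7.0 and 5.79 in GFPko cells with and without IL-2, and 6.24 and 6.29 in CD25pos cells with and without IL-2. CD25neg cells had 5.44, the lowest of the 10 arrays. The IL-2 difference was thus 0.96 in GFPfoxp3 cells, 1.21 in GFPko cells (2.32-fold) and -0.05 in CD25pos cells, and its average of 0.71 did not pass (SE 0.277, limma unadjusted p = 0.0596, adjusted p = 0.493). No population contrast of Tnf passed.

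Ltb, which anchors lymphotoxin to the membrane, varied least of the 7 genes that passed the filter, over 0.74 log2 units from 11.86 to 12.60. Its IL-2 differences were 0.08, 0.39 and -0.01 in GFPfoxp3, GFPko and CD25pos cells. GFPfoxp3 and GFPko cells averaged 0.48 and 0.54 more than CD25pos cells on the log2 scale, and neither passed (limma adjusted p = 0.126 and 0.138). With IL-2 the differences from CD25pos cells were 0.53 and 0.74, and without IL-2 0.44 and 0.34.

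Of the 7 genes none passed the IL-2 test with limma under the main or any alternative setting, and 1, Lta, had an unadjusted p under 0.05, where 0.235% of all genes were called, 28 of 11938 and each higher after IL-2 (0 to 121 over the alternatives). An unadjusted p under 0.05 was reached by 10.6% of all genes. In single pairs Lta was past 2-fold after IL-2 in GFPfoxp3 cells (1.95% of all genes were past 2-fold there in either direction), Lta and Tnf in GFPko cells (4.92% of all genes) and none of the 7 in CD25pos cells (1.35% of all genes). Some other measures moved with IL-2. The Actb 3′ to 5′ difference was 2.70, 2.76 and 2.86 with IL-2 in GFPfoxp3, GFPko and CD25pos cells, against 3.07, 3.69 and 3.80 without. In GFPko cells Foxp3 was 9.39 with IL-2 and 8.33 without, and Il2ra 11.28 with IL-2 and 9.58 without. Lyz2, a myeloid gene, was 5.71 with IL-2 and 3.36 without in these cells. It was the sole myeloid marker that was higher with IL-2 there, and Fcgr3 was 4.52 with IL-2 and 5.48 without. Of the CD8 and NK markers Klrd1 was 4.57 with IL-2 and 3.04 without in these cells. Of the B cell markers Cd22 was 4.40 with IL-2 and 2.82 without. Both were below background without IL-2. Their part in the Lta and Tnf differences was not tested.

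Lif and Osm, cytokines of the IL-6 family, gave the same order of populations as Lta. Lif differed after IL-2 by 1.40 in GFPfoxp3 cells, 3.07 in GFPko cells and 0.68 in CD25pos cells (average 1.72, SE 0.494, limma adjusted p = 0.415), and Osm by 1.15, 1.36 and 0.25 (average 0.92, SE 0.246, limma adjusted p = 0.395). Neither passed over all genes. Both were picked from the 10 other T cell cytokines that passed the filter. In GFPko cells after IL-2, 3 of those 10 were past 2-fold higher (Lif, Osm and Il4). Another 3 were past 2-fold lower: Il17a, Il10 (5.93 with IL-2 and 7.11 without) and Il21 (6.36 and 7.46). Of all genes 4.92% were past 2-fold there in either direction.

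**Figure D3:**
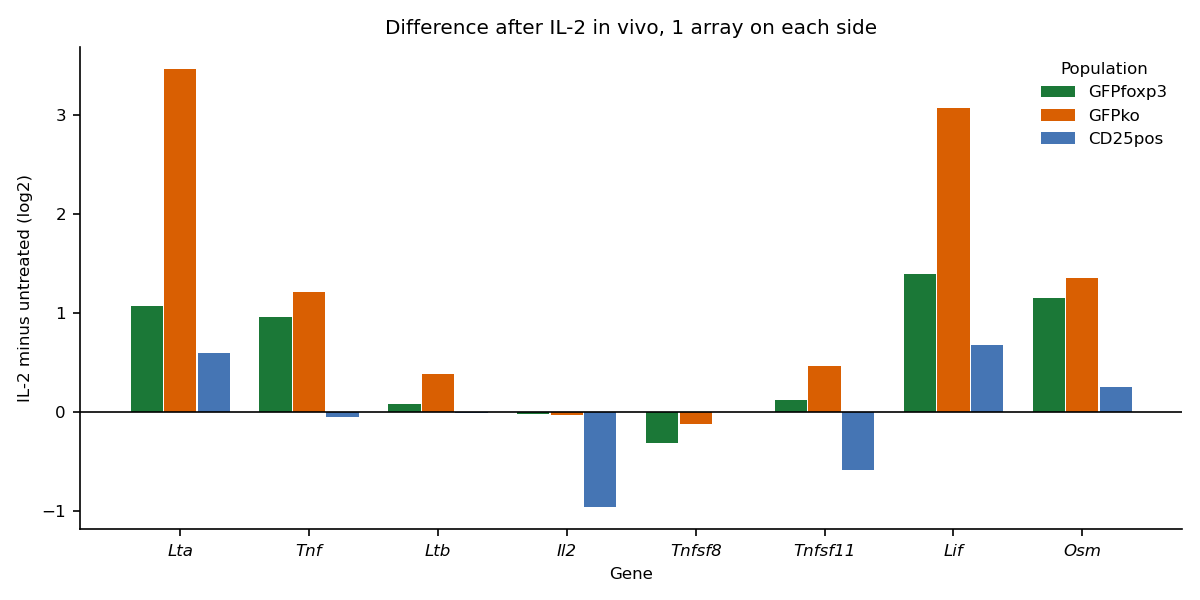
Log2 difference between cells of mice given IL-2 and of untreated mice, for 6 of the 8 genes and for Lif and Osm, in GFPfoxp3, GFPko and CD25pos cells, with 1 array on each side and no error bar. In GFPko cells Lta lies at 3.47, Lif at 3.07, Osm at 1.36 and Tnf at 1.21, while Il2 in CD25pos cells lies at -0.96.

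Tnfsf11, the osteoclast differentiation ligand RANKL, was lowest in CD25neg cells and highest in the vector arrays. Its level was 8.38 and 8.26 in GFPfoxp3 cells with and without IL-2, 8.94 and 8.47 in GFPko cells with and without IL-2, 8.31 and 8.89 in CD25pos cells with and without IL-2, 7.33 in CD25neg cells, 9.65 in PDE3B cells, 9.08 in PDE3B(H801A) cells and 9.36 in cells with the empty vector. The 6 modelled arrays overlapped between populations and between IL-2 states, and no test of Tnfsf11 passed (limma adjusted p = 0.453 to 0.998). GFPko and CD25pos cells were 2.20-fold and 2.94-fold above CD25neg cells. The other probe set of the gene lay below the median on all arrays, at 2.80 to 2.84, and averaged with it these differences were 0.58 and 0.78 on the log2 scale, short of 2-fold.

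Cd40lg, the CD40 ligand that helper T cells show to B cells, had no level above background. It was at 2.92 and 2.25 in CD25pos cells with and without IL-2, at 2.51 in CD25neg cells and at 2.22 to 2.29 on the other 7 arrays. No fold or test is given.

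CD25neg cells were the low side in most single pairs of untreated cells. Lta was 1.55, 1.5 and 1.06 higher on the log2 scale in GFPfoxp3, GFPko and CD25pos cells than in CD25neg cells (in CD25pos cells 0.96 and 0.94 after quantile normalization and centring). In GFPfoxp3 cells 2 of the 7 genes were past 2-fold (Lta higher, Il2 lower), where 10.9% of all genes were. In GFPko cells it was 3 of 7, all higher (Tnfsf8, Lta and Tnfsf11), where 3.93% of all genes were higher past 2-fold and 6.73% in either direction, and in CD25pos cells 3 of 7, all higher (Il2, Tnfsf11 and Lta), where 5.55% of all genes were higher and 7.25% in either direction. The 3 comparisons share the CD25neg array.

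**Figure D4:**
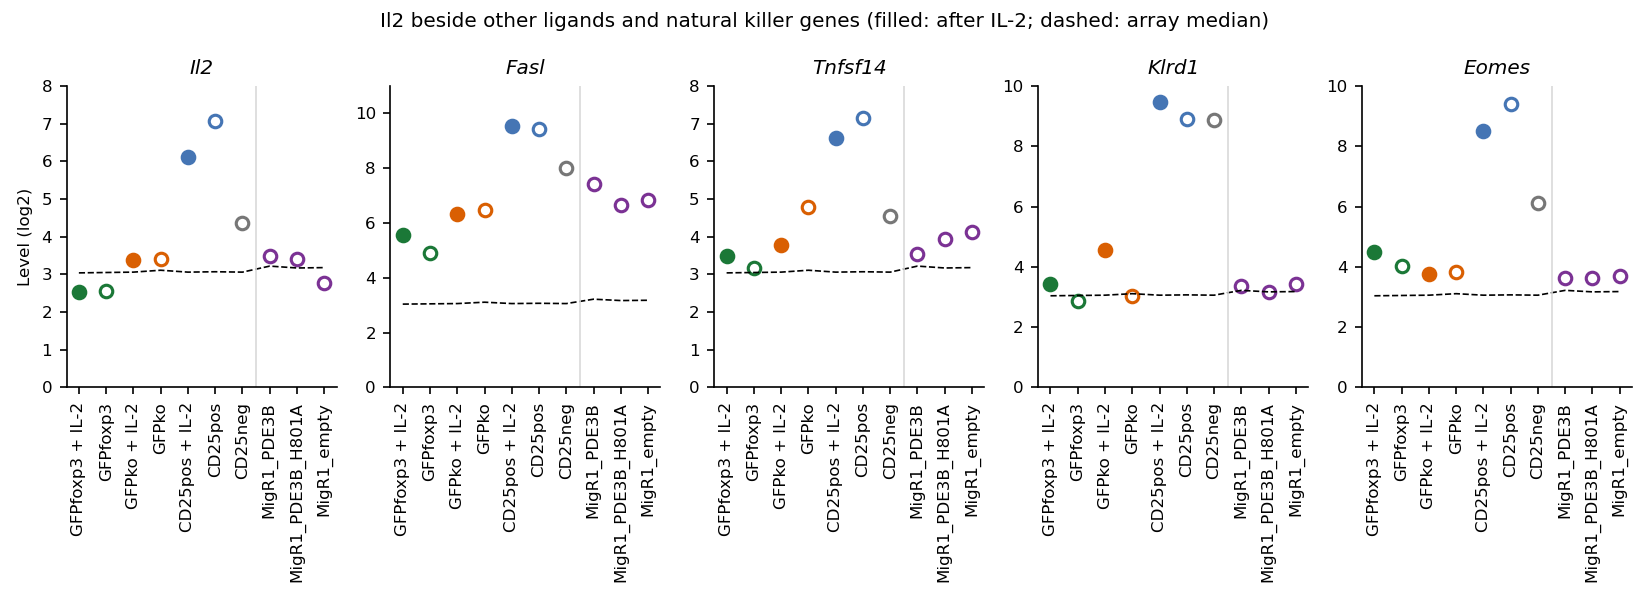
Log2 level of Il2, of the TNF family ligands Fasl and Tnfsf14 and of the CD8 and NK cell genes Klrd1 and Eomes (1 panel a gene) on the 10 arrays, 1 point an array, filled after IL-2, with the array median dashed. Each of the 5 genes is highest on the CD25pos arrays (untreated: Il2 7.08, Fasl 9.44, Tnfsf14 7.15, Klrd1 8.91, Eomes 9.41). In CD25neg cells the levels are Il2 4.36, Fasl 8.01, Tnfsf14 4.54, Klrd1 8.88 and Eomes 6.13.

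In the vector experiment Csf2 was the sole gene of the 7 past 2-fold. The groups are those of the labels, which the Pde3b level (6.91, 7.54 and 7.43 in PDE3B, PDE3B(H801A) and empty vector cells) did not follow. It was at 3.41 in PDE3B cells, 2.81 in PDE3B(H801A) cells and 4.30 in cells with the empty vector. PDE3B(H801A) cells were at least 2.19-fold lower than cells with the empty vector, where 1.37% of genes were lower past 2-fold and 2.30% in either direction, and PDE3B cells differed from the empty vector by -0.90 on the log2 scale (1.86-fold lower). Both arrays labelled with an enzyme were below the empty vector array, and the lowest was the one labelled PDE3B(H801A). None of the 7 genes was past 2-fold in PDE3B cells against the empty vector (5.44% of all genes were) or in PDE3B cells against PDE3B(H801A) cells (3.04% of all genes). Tnf was at 5.65 in PDE3B cells, 5.75 in PDE3B(H801A) cells and 6.25 in cells with the empty vector. Ltb was at 12.10, 12.25 and 12.50 in the same order, with both enzyme arrays below the empty vector for either gene. Many genes differed as much. Counted from the lowest difference among 11938 genes, Tnf ranked 1528 in PDE3B and 1016 in PDE3B(H801A) cells, and Ltb 2663 and 2786. Il2 was 0.73 and 0.64 higher than with the empty vector, where it had no level above background.

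Other genes of the same pathways were taken from lists. The counts are read against all genes, of which 5.44% were called higher and 2.03% lower in GFPfoxp3 against GFPko cells, 5.28% higher and 3.45% lower in GFPfoxp3 against CD25pos cells, and 1.25% higher and 2.24% lower in GFPko against CD25pos cells. Of 9 receptor chains that passed the filter, of 13 listed, Tnfrsf1b was higher in GFPfoxp3 cells: this TNF receptor, which also binds lymphotoxin alpha, averaged 11.51 in GFPfoxp3 cells and 9.33 in GFPko cells (4.54-fold, SE 0.0953, limma adjusted p = 0.0052) and 6.66-fold above CD25pos cells (limma adjusted p = 0.00479). Il2ra was 10.8-fold higher in GFPfoxp3 than in CD25pos cells (SE 0.442, limma adjusted p = 0.026), although CD25 was itself a sort marker there. No receptor was called in GFPko against CD25pos cells (up to 2 over the alternatives) or with IL-2. Of 7 other TNF family ligands kept of 12 listed, Fasl, which triggers cell death, was 19.2-fold lower in GFPfoxp3 and 8.54-fold lower in GFPko cells than in CD25pos cells (SE 0.231, limma adjusted p = 0.00549 and 0.0207). Tnfsf14 was 11.9-fold and 6.05-fold lower in the same contrasts (SE 0.344, limma adjusted p = 0.0145 and 0.0436), and Tnfsf10, or TRAIL, was higher in GFPfoxp3 than in CD25pos cells (0.94, SE 0.132, limma adjusted p = 0.0299). Thus 2 of 7 ligands were called lower in each contrast with CD25pos cells, beside 3.45% of all genes for GFPfoxp3 and 2.24% for GFPko cells. Over the alternatives the ligands called in either direction were 1 to 3 of the GFPfoxp3 contrast and 0 to 2 of the GFPko one. None was called in GFPfoxp3 against GFPko cells, but 2 were with the filter on the mean over the 10 arrays.

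Of 10 other T cell cytokines kept of 16 listed, 3 were called lower and 1 higher in GFPfoxp3 than in GFPko cells. Il17a, the T helper 17 cytokine, differed by -4.10 on the log2 scale and Il21 by -3.90, each above background on 1 of the 2 GFPfoxp3 arrays, and Il4 was at least 6.55-fold lower, while Ebi3, a subunit of IL-35, was 11.6-fold higher (limma adjusted p = 0.021, 0.0304, 0.0271 and 0.00835). Against CD25pos cells Il4, Il21 and Ifng were lower in GFPfoxp3 cells, with Ifng 10.1-fold lower (limma adjusted p = 0.00479), and 2 were called higher, of which Il10 was 6.43-fold higher (limma adjusted p = 0.00748). GFPko cells differed from CD25pos cells the same way for Ifng (11.7-fold lower, limma adjusted p = 0.00877) and Il10 (6.06-fold higher, limma adjusted p = 0.0191), but the 2 other calls were Il17a, 12.4-fold higher, and Ebi3, 3.14-fold lower (limma adjusted p = 0.0378 and 0.0458). Over the alternatives 1 to 4, 2 to 5 and 0 to 5 of the 10 were called in these 3 contrasts. None of the 10 passed the IL-2 test.

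Of 15 activation factors kept of 16 listed, Fos, a subunit of AP-1, averaged 9.61 in GFPfoxp3, 11.78 in GFPko and 8.78 in CD25pos cells. It was 4.51-fold lower in GFPfoxp3 than in GFPko cells (SE 0.365, limma adjusted p = 0.0475) and 8.03-fold higher in GFPko than in CD25pos cells (limma adjusted p = 0.0384). Relb, an NF-kappaB subunit, was 2.65-fold higher in GFPfoxp3 than in GFPko cells (limma adjusted p = 0.0232). Jun, Junb and Batf were called higher in GFPfoxp3 than in CD25pos cells, and Jun and Junb together with Fos in GFPko cells (3 of 15 each), beside 5.28% and 1.25% of all genes called higher. The GFPko count was 0 without the filter on dim genes, with all 10 arrays or without GFPfoxp3 cells in the fit, 1 after quantile normalization and 5 with centred arrays, and the GFPfoxp3 count was 1 to 3. Against GFPko cells the count of 2 in GFPfoxp3 cells (Fos and Relb) was 0 to 5 over the alternatives. Of the 11 genes that control cytokine mRNA stability, Zc3h12d, an inhibitor of inflammatory mRNAs, was 2.49-fold higher in GFPfoxp3 than in GFPko cells (SE 0.128, limma adjusted p = 0.0175), and Hnrnpd, which binds AU-rich mRNA elements, was lower in GFPfoxp3 than in CD25pos cells (-0.83, SE 0.103, limma adjusted p = 0.0239).

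Patterns over the 10 arrays were compared by Pearson's r among the 2248 genes that varied by over 2 log2 units, as a description without a test, since the 10 arrays share populations and experiments. Il2 was most like Slc16a10 (r = 0.962), Acoxl (0.959) and Pou2af1, a coactivator of octamer factors (0.954), and 20 genes had r over 0.9. Lta was most like Lif (0.934), then Naf1 (0.898) and Map3k8 (0.870). Tnfsf8 was most like Igfbp7 (0.936), Fcgr3 (0.918) and Ccl20 (0.909). For Tnfsf11 the likest was Fabp5 (0.915), which over the 6 modelled arrays had r = -0.0749, so that its likeness rests on the vector and CD25neg arrays.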

How the data were processed

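The authors deposited log2 expression values for 45101 probe sets, made by normalizing all 10 arrays jointly, as the series' design text states; that they are log2 was read from their range. Per the labels' protocols, RNA was extracted with Stat-60 and amplified in 2 rounds with MessageAmp II. No source used here gives the background correction, probe summary or normalization method. Names came from the platform annotation and were updated by Entrez ID to GRCm38.p6 (34741 of the 34958 with 1 gene matched; 932 had several genes and 9211 none listed). A probe set of Il2 and Ntan1 was not used.

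A probe set was kept if it reached the median over all probe sets on 1 array or more. Of the 10 arrays 6 were fitted with limma 3.58.1 in R 4.3.3 as population plus IL-2, which leaves 2 residual degrees of freedom (prior 2.23), and p-values were adjusted by Benjamini-Hochberg over 11938 genes. The scripts were tested on simulated data. The number of arrays limits the precision. The genes and the lists were chosen with earlier results of these data known. The named genes were the 8 genes and, of each list, members called or past 2-fold, up to 4 by size of difference. Likeness used genes varying by over 2 log2 units. Promoter windows are RefSeq's, GRCm38.p6. Alternatives are in the closing section.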

Additional observations from a re-analysis of the deposited data

Results flagged for a closer look

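Ltb, Tnf, Tnfsf11 and Csf2 stood out because the IL-2 difference had opposite signs in different populations. For Ltb, Tnf and Csf2 the negative differences were near 0 (-0.01, -0.05 and -0.02). Lta is not among these genes, as its differences had the same sign, but they lay further apart (3.47 in GFPko and 0.60 in CD25pos cells). These are differences between 2 arrays each, and that they differ between populations was not tested. For Tnf the differences lay 1.26 log2 units apart, from 1.21 in GFPko cells to -0.05 in CD25pos cells, with 0.96 in GFPfoxp3 cells. For Tnfsf11 they lay 1.05 apart, with 0.47 in GFPko cells and -0.58 in CD25pos cells. For Ltb they lay 0.40 apart, with 0.39 in GFPko cells and -0.01 in CD25pos cells, and for Csf2 0.06 apart, a gene not above background in GFPfoxp3 and GFPko cells. The fitted SD was 0.339 for Tnf, 0.277 for Tnfsf11, 0.139 for Ltb and 0.0947 for Csf2, and it comes from these same disagreements.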

How the results depend on the processing

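No paired analysis was possible because each group has 1 array and no group shares replicate numbers beyond the number 1. The arrays carry no date or batch. Under the alternatives no difference reversed its sign across a call. Of the 101 counts of called or 2-fold genes among the 8 recomputed, 83 stayed within 1.5 times and 18 did not. The cause was not tested. Of the 7 genes tested, GFPfoxp3 against GFPko cells called 1, and 2 when arrays were centred or when the IL-2 pair alone was counted at 2-fold. GFPfoxp3 against CD25pos cells called 3, and 1 without GFPko cells or in the untreated pair alone. GFPko against CD25pos cells called 2, and 0 without the filter on dim genes or without GFPfoxp3 cells, where fewer arrays were fitted. Against CD25neg cells the counts of 2, 3 and 3 in GFPfoxp3, GFPko and CD25pos cells were each 1 at 3-fold, and 5 in CD25pos cells at 1.5-fold. After IL-2 the count of 1 in GFPfoxp3 cells was 0 at 3-fold and 2 at 1.5-fold, that of 2 in GFPko cells was 1 at 3-fold, and that of 0 in CD25pos cells was 2 at 1.5-fold. In the vector pairs PDE3B against empty had 3 at 1.5-fold, PDE3B(H801A) against empty 0 at 3-fold and 2 at 1.5-fold, and PDE3B against PDE3B(H801A) 1 at 1.5-fold.

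Over all genes, GFPfoxp3 against GFPko cells called 892, 1379 with centring, 382 without the filter on dim genes and 408 without CD25pos cells. GFPfoxp3 against CD25pos cells called 1042, and 609 without that filter. GFPko against CD25pos cells called 416, 864 with centring, 33 without that filter and 0 without GFPfoxp3 cells. IL-2 called 28, 121 with centring, 59 with all 10 arrays, 53 with a filter on the mean, and 0 with quantile normalization, no filter, no cross-matching probe sets, an intensity trend or any population left out. Without the filter on dim genes the other T cell cytokines called in GFPfoxp3 against GFPko cells were 1, against 4 with it, and the activation factors 0, against 2. Further calls appeared among the 8 genes in GFPko against CD25pos cells: Ltb with centring (adjusted p = 0.0424) and Csf2 with an intensity trend (adjusted p = 0.029). Signals near background limit Il2 in GFP+ cells, Csf2 and Cd40lg.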

Other observations

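Lif, Osm and Il2ra were past 2-fold after IL-2 in GFPko cells (3.07, 1.36 and 1.70 on the log2 scale), and so, the other way, were Jun (-1.5), Zfp36l1 (-1.04), a gene whose product destabilises cytokine mRNAs, and Il17a (-1.69), while Il4 was 1.44 higher. In GFPfoxp3 cells Il10 differed by -1.06 after IL-2. These are single arrays and have no test.

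In the vector arrays Jun and Fos, subunits of AP-1, were 2.38 and 2.11 higher on the log2 scale in cells labelled PDE3B than with the empty vector, and Fos 2.40 higher in PDE3B than in PDE3B(H801A) cells. Lif differed from the empty vector by -1.44 in PDE3B cells and by -1.4 in PDE3B(H801A) cells. Cd70, a TNF family ligand, was at 4.27, 3.61 and 4.96 in PDE3B, PDE3B(H801A) and empty vector cells and at background on the other arrays. Ifng and Il10 were 1.08 and 1.01 higher in PDE3B than in PDE3B(H801A) cells.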
